A study of Homo sapiens with 6 samples.

Results

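The 49 genes described here encode the machinery of DNA replication and other targets of the E2F transcription factors. The list was drawn up by symbol, by known role, with earlier results of these data known, and all 49 were found among the 31368 rows of the expression table. RNA-seq of poly-A RNA was carried out on CAL27, an established human cell line from an oral squamous cell carcinoma. In 3 libraries the cells had been kept in 10 mM lactate for 24 h, and 3 libraries came from cells of the same line with no treatment. The comparison asks how added lactate bears on the cells' mRNA levels. The labels name no vehicle, do not say whether the lactate was the acid or a salt, and give no word on whether replicates are cultures grown apart. The p-values therefore measure the spread between these libraries, which may be technical, and the results come from 1 cell line.

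Values are FPKM, read counts scaled by gene length and library size, which were deposited by the authors. Being per length, they can be compared between genes, but they depend on the gene lengths the authors used. Where 3 values are given for a group they are in the order of replicates 1 to 3. The denominators behind them were 30957477 to 40220226 reads in lactate and 25163374 to 33297625 in untreated libraries, and the members rested on 118 (E2F2) to 19609 (MCM7) reads per library. FPKM over all genes summed to 398439 to 409127 in lactate and 432328 to 442352 in untreated libraries. All 10 squamous epithelial markers checked, including KRT5, TP63 and CDH1, passed the filter on low values. Of these 6 rose and 2, KRT5 and KRT6A, fell, where 27.7% of all tested genes rose and 30.9% fell. Their summed levels were 1062 to 1083 FPKM in lactate and 1053 to 1071 FPKM in untreated libraries. Of 12 markers of immune, endothelial and stromal cells 10 were in the table, and these summed to 2.78 to 2.91 FPKM in lactate and 2.35 to 2.55 FPKM in untreated libraries. CDH5 alone passed the filter, with 0.992 FPKM in lactate and 1.22 FPKM in untreated libraries on average (limma, adjusted p = 0.0678). The stromal markers LUM (0.753 FPKM in lactate, 0.372 FPKM in untreated libraries), PDGFRB (0.343 in lactate, 0.224 in untreated) and COL1A2 (0.154 in lactate, 0.107 in untreated) were higher in lactate without overlap and were below the filter, while COL1A1 overlapped. The immune markers CD3E (0.0523 in lactate, 0.0149 in untreated) and CD68 (0.0146 in lactate, 0.0286 in untreated) were near 0. The part of these markers in the results was not tested.

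Before S phase, the origin recognition complex with CDC6 and CDT1 loads the MCM2 to MCM7 helicase onto DNA, which licenses origins. CDC45 and GINS join it when an origin fires, and the polymerases, the sliding clamp PCNA and its loader replication factor C follow. Transcription of most of these genes depends on E2F factors, which the retinoblastoma protein restrains until cyclin-dependent kinases, cyclin E among its partners, phosphorylate it. In carcinoma cells such transcripts are widely used as a sign of cells entering S phase.

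E2F factors bind sequences close to the transcription start, so the stretch before the start of 5 members is shown. All 5 hold a match to the sequences named below, so they do not stand for the members at large. Of 43 members with a promoter 22 held a match, and of 9 that rose 3 did. MCM6 and POLA1 rose in lactate, and MCM7, GINS2 and E2F1 fell. The 200 bases directly before each start are from RefSeq, build GRCh38.p14, written 5′ to 3′ on the strand of the gene. The start is that of the RefSeq table, and other annotated transcripts may start farther upstream: the windows of MCM7 and GINS2 lie inside the genes as GENCODE 29 bounds them, which end at 100101940 on chromosome 7 and at 85690073 on chromosome 16. Capitals mark any match to TTTCGCGC, TTTGGCGC, TTTCCCGC or TTTGCCGC on either strand.
MCM6: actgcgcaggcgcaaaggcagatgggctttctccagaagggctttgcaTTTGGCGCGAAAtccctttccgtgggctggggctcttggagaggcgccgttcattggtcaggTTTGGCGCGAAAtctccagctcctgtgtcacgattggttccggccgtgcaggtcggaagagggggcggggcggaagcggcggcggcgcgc
POLA1: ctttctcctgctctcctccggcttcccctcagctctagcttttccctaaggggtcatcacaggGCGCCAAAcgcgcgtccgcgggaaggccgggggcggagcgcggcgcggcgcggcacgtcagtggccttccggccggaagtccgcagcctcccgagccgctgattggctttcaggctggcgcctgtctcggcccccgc
MCM7: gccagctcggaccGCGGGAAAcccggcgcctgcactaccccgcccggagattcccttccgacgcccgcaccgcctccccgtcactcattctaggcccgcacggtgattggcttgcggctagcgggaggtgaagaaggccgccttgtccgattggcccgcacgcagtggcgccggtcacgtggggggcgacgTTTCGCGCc
GINS2: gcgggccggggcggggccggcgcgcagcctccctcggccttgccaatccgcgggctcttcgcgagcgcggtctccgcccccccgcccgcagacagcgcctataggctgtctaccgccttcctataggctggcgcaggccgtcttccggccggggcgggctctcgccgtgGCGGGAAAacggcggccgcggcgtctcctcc
E2F1: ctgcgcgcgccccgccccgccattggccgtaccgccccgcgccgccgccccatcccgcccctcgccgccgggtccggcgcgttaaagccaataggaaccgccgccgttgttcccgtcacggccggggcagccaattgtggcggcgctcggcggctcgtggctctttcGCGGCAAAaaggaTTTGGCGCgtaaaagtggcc
These windows lie at chr2:135876444-135876643 (minus strand), chrX:24693718-24693917 (plus strand), chr7:100101398-100101597 (minus strand), chr16:85688955-85689154 (minus strand) and chr20:33686386-33686585 (minus strand). In MCM6 the run TTTGGCGCGAAA, a pair of overlapping matches on opposite strands, occurs at 152 to 141 and again at 90 to 79 bases before the start. The E2F1 window holds matches 33 to 26 and 20 to 13 bases before the start, and that of MCM7 holds matches 187 to 180 and 9 to 2 bases before it.

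Promoters of 43 members were in the RefSeq table, each covering 250 bases before and 50 after the start. A match to any of the 4 sequences on either strand occurred in 22 of the 43 (51.2%). The same held for 5.75% of 8367 promoters of tested genes and 3.33% of 27305 promoters in the table. CCAAT, the core of the NF-Y site, was present on either strand in 25 of the 43 (58.1%), against 37.4% for tested genes and 35.7% for all. By their behaviour in lactate, 3 of 9 members that rose, 13 of 26 that fell and 5 of 7 that did not pass held an E2F-type match, as did E2F2, which was not tested. Such matches describe the letters in these windows only. Since genes were listed for their known regulation by E2F, the excess over all promoters is no finding of these samples.

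With FPKM as deposited, most of these mRNAs were slightly lower in lactate, while a smaller number, spread over the same protein complexes, were higher. Of 48 members tested by limma on log2(FPKM + 1), 28 fell and 11 rose at a Benjamini-Hochberg adjusted p under 0.05, and 9 did not pass. Over all 11792 genes tested, 30.9% fell and 27.7% rose, so the members' share of rises (11 of 48) lay near the background and their share of falls (28 of 48) above it. The counts by role below have the same background. Falls among the polymerases and primase (33.3%) and among the E2F factors and cyclins E (33.3%) lay near it. Scaled instead by total reads per library, 20 members fell and 15 rose, against 2579 and 4162 of the 11792 genes. That scaling raised the median log2 fold change over all tested genes by 0.055, to 0.039. The number of falls thus depends on the scaling, and which scaling is nearer to the amounts of mRNA was not tested. After a fitted dependence on GC content and exon length was taken out of each library (below, the GC and length trend), 23 fell and 7 rose, against 26.1% and 23.3% of all genes. In either direction 58.6% of all genes were called, against 39 of 48 members. The median log2 fold change, lactate over untreated, was -0.12 over the members and -0.016 over all genes tested. Over the 6448 genes passing a filter at 5 FPKM it was -0.071. The members were more abundant than most genes, with median untreated levels of 27.4 FPKM for those that fell and 10.1 FPKM for those that rose, against 5.61 FPKM over all tested genes. The part of abundance in these counts and medians was not tested.

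The changes were small. They ran from -0.39 (GINS3) to 0.35 (MCM10) on the log2(FPKM + 1) scale, and against a minimum fold of 1.2 only MCM7 passed (adjusted p = 0.00661), with 0 members rising by limma and 3 (RFC1, RFC4 and MCM10) at an unadjusted p under 0.05. Against that fold 2.05% of all genes passed as lower and 1.59% as higher, 3.64% in all. With no test, 12 of the 48 members changed at least 1.2-fold either way, against 23.3% of all genes. With FPKM as deposited, the libraries of the groups did not overlap for 41 of the 48 members, against 65.5% of all tested genes. In bulk RNA, fewer cells in S phase and less of an mRNA per cell cannot be told apart.

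**Figure D1:**
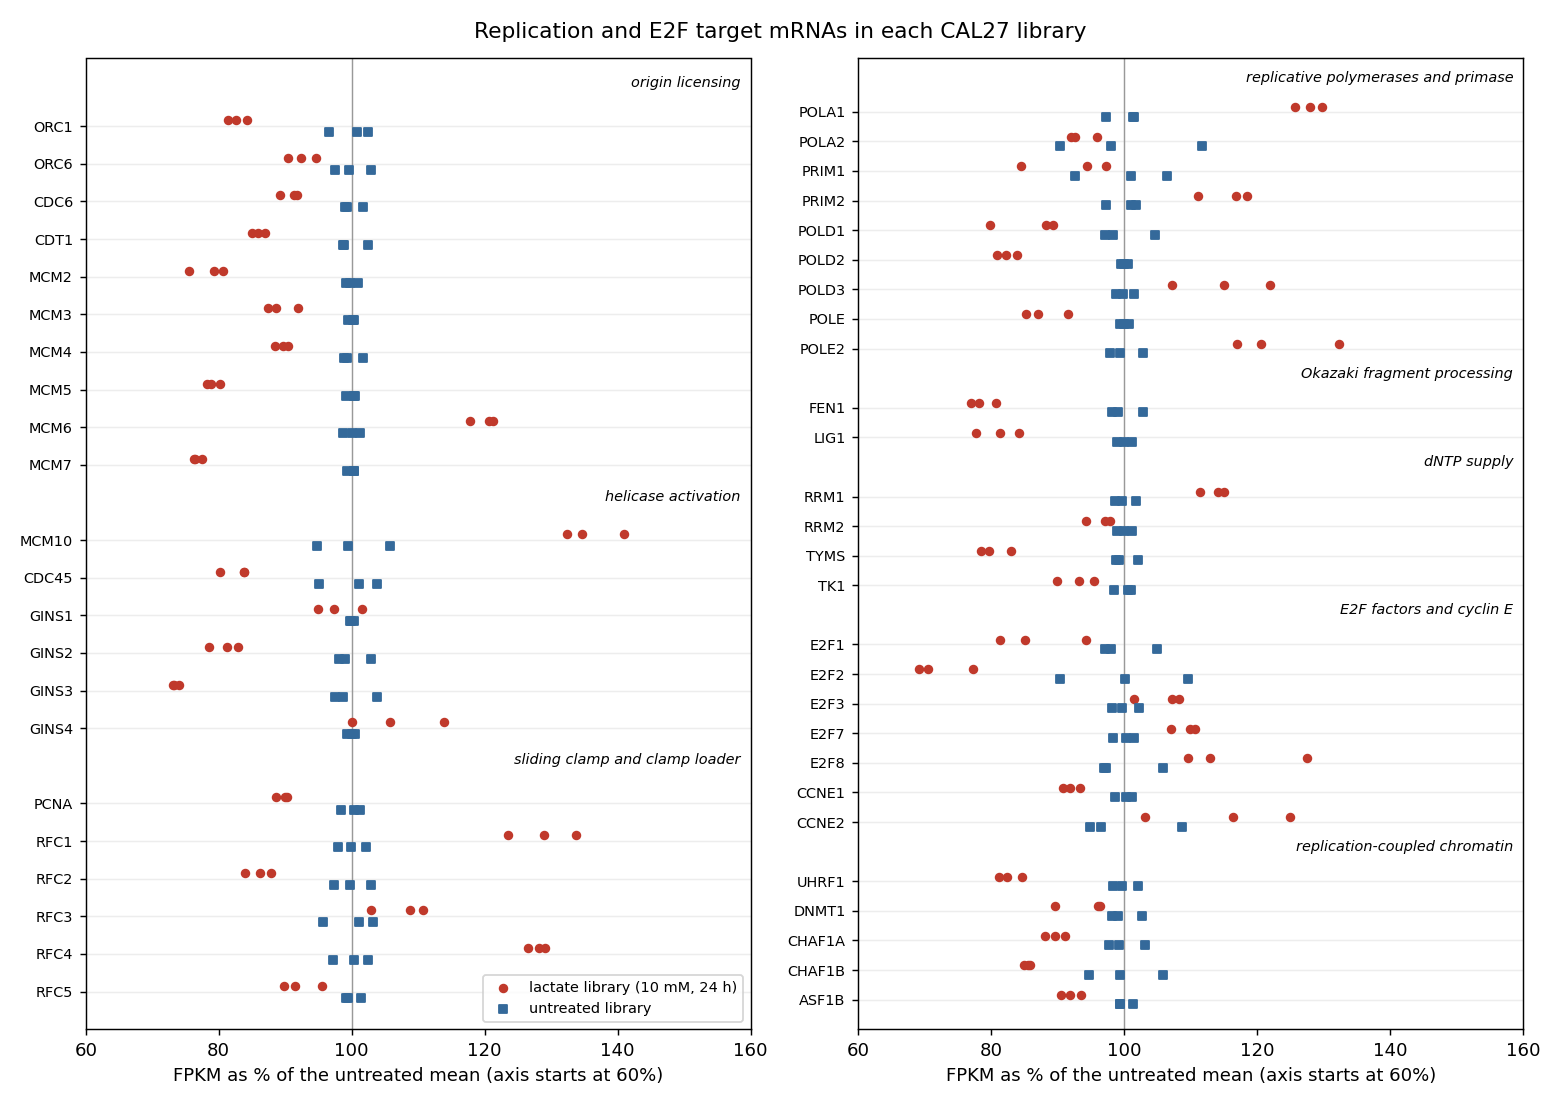
Each point is 1 library's FPKM for 1 member as a percent of that member's mean in the untreated libraries, with lactate libraries as circles in the upper row and untreated libraries as squares in the lower row of each gene; the axis starts at 60%. Lactate circles lie left of the untreated squares for 9 of the 10 origin licensing genes, while those of MCM6, MCM10, RFC1, RFC4, POLA1, POLE2 and RRM1 lie to the right.

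Summed over the 49 members, FPKM was 1327, 1331 and 1342 in lactate and 1477, 1491 and 1484 in untreated libraries. As a share of all FPKM the sums were 0.324%, 0.334% and 0.336% in lactate and 0.334%, 0.345% and 0.343% in untreated libraries, and by that measure the groups overlapped. The sums are dominated by a few abundant mRNAs, among them PCNA, TK1 and MCM7.

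Among the members for origin licensing, 9 of 10 fell and 1, MCM6, rose, with a median log2 fold change of -0.19. The loading factors among the members were lower. The other subunits of the origin recognition complex are not members. Of these, ORC2 (log2 fold change 0.32, adjusted p = 4.04e-04), ORC3 (0.27, 0.00117) and ORC4 (0.12, 0.0274) rose by limma. ORC5 did not pass (-0.070, adjusted p = 0.153). With the GC and length trend removed ORC2 and ORC3 still rose, ORC4 did not pass and ORC5 fell. ORC1, the largest subunit of the origin recognition complex, had 9.32, 9.18 and 9.496 FPKM in lactate and 10.9, 11.6 and 11.4 FPKM in untreated libraries (log2 fold change -0.25, SE 0.031, adjusted p = 4.21e-04). CDT1, which brings the helicase to origins, had 28.4, 29.03 and 28.7 FPKM in lactate and 32.9, 34.2 and 33.003 FPKM in untreated libraries (log2 fold change -0.21, SE 0.024, adjusted p = 2.68e-04). Both were lower in every lactate library than in any untreated one, and both kept their call under every scaling tried. CDC6, an ATPase that acts with the origin recognition complex in loading, had 21.6, 21.1 and 21.7 FPKM in lactate and 24.1, 23.4 and 23.5 FPKM in untreated libraries (log2 fold change -0.13, SE 0.024, adjusted p = 0.00232). ORC6, the smallest subunit, had 19.5, 19.9 and 20.4 FPKM in lactate and 20.99, 22.2 and 21.5 FPKM in untreated libraries (log2 fold change -0.11, SE 0.029, adjusted p = 0.0153). These differences were smaller, and the groups still did not overlap. CDC6 did not pass after quantile normalization (adjusted p = 0.0638). ORC6 did not pass after quantile normalization (adjusted p = 0.326), with read totals (0.314), with the GC and length trend removed (0.0635), with no filter on low values (0.0526) or without lactate replicate 1 (0.0508).

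The 6 subunits of the MCM helicase form a ring in equal amounts of protein, but their mRNAs did not move together. MCM7 (ENSG00000166508, chromosome 7, 100092728 to 100101940, GRCh38) was the most abundant, with 102, 102 and 104 FPKM in lactate and 134, 133 and 134 FPKM in untreated libraries (log2 fold change -0.38, SE 0.016, adjusted p = 1.20e-05). AP4M1 on the opposite strand overlaps 8.94% of its exonic length. MCM5 had 24.3, 24.9 and 24.5 FPKM in lactate and 30.8, 31.2 and 31.2 FPKM in untreated libraries (log2 fold change -0.33, SE 0.021, adjusted p = 3.06e-05), and MCM2 had 26.9, 28.8 and 28.3 FPKM in lactate and 36.01, 35.6 and 35.4 FPKM in untreated libraries (log2 fold change -0.34, SE 0.028, adjusted p = 7.08e-05). These 3 mRNAs fell in mean FPKM, where MCM5 fell by 20.9%, MCM2 fell by 21.5% and MCM7 fell by 23.3%, and passed under every scaling tried. MCM3 had 39.7, 37.8 and 38.3 FPKM in lactate and 42.95, 43.4 and 43.3 FPKM in untreated libraries (log2 fold change -0.16, SE 0.024, adjusted p = 0.00103). MCM4 had 43.7, 43.1 and 44.1 FPKM in lactate and 49.6, 48.4 and 48.2 FPKM in untreated libraries (log2 fold change -0.16, SE 0.021, adjusted p = 5.66e-04). Both were lower without overlap of the groups. MCM3 did not pass once the GC and length trend was removed (-0.055, adjusted p = 0.0859), and MCM4 did not pass after quantile normalization (adjusted p = 0.0986). MCM6 (ENSG00000076003, chromosome 2, 135839626 to 135876426) went the other way, with 27.2, 26.6 and 27.4 FPKM in lactate and 22.6, 22.9 and 22.3 FPKM in untreated libraries (log2 fold change 0.25, SE 0.023, adjusted p = 1.11e-04). It was higher in all 3 lactate libraries and stayed so with the trend removed (0.18, adjusted p = 1.84e-04). Its share of the summed FPKM of the 6 subunits was 10.2% ± 0.119 in lactate and 7.16% ± 0.0995 in untreated cells (SD, n = 3 each; exact two-sided permutation p = 0.1, the smallest that 3 against 3 allows).

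Of the 6 genes that turn the loaded ring into an active helicase, 3 fell, 1 rose and 2 did not pass. CDC45, which with GINS completes the active helicase, had 26.5, 27.7 and 27.7 FPKM in lactate and 34.3, 33.4 and 31.4 FPKM in untreated libraries (log2 fold change -0.27, SE 0.036, adjusted p = 6.40e-04). GINS3 had 6.15, 6.22 and 6.14 FPKM in lactate and 8.19, 8.301 and 8.72 FPKM in untreated libraries (log2 fold change -0.39, SE 0.032, adjusted p = 6.37e-05), and GINS2 had 43.1, 41.6 and 43.99 FPKM in lactate and 51.99, 54.6 and 52.5 FPKM in untreated libraries (log2 fold change -0.30, SE 0.029, adjusted p = 1.34e-04). GINS3 had the largest fall of the 48 tested members on the log2(FPKM + 1) scale, which understates low genes such as the untested E2F2, and was the fall with the lowest GC content, 43.6%. With the GC and length trend removed its log2 fold change was -0.47. The other GINS subunits differed less. GINS1 had 15.8, 14.8 and 15.2 FPKM in lactate and 15.5, 15.6 and 15.5 FPKM in untreated libraries (log2 fold change -0.028, SE 0.029, adjusted p = 0.44; 95% interval -0.097 to 0.041). GINS4 had 4.69, 4.12 and 4.36 FPKM in lactate and 4.14, 4.09 and 4.12 FPKM in untreated libraries (log2 fold change 0.073, SE 0.044, adjusted p = 0.187; interval -0.029 to 0.18). In both the groups overlapped. GINS1 passed as lower with the trend removed (-0.13, adjusted p = 0.00379), and GINS4 passed as higher with read totals (0.13, adjusted p = 0.0306). MCM10, which is needed for the helicase to start unwinding and is no part of the ring, had 4.65, 4.44 and 4.37 FPKM in lactate and 3.28, 3.49 and 3.13 FPKM in untreated libraries (log2 fold change 0.35, SE 0.043, adjusted p = 3.69e-04). It showed the largest rise of the tested members, 35.99% in mean FPKM, and remained higher with the trend removed (0.26, adjusted p = 0.00101).

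**Figure D2:**
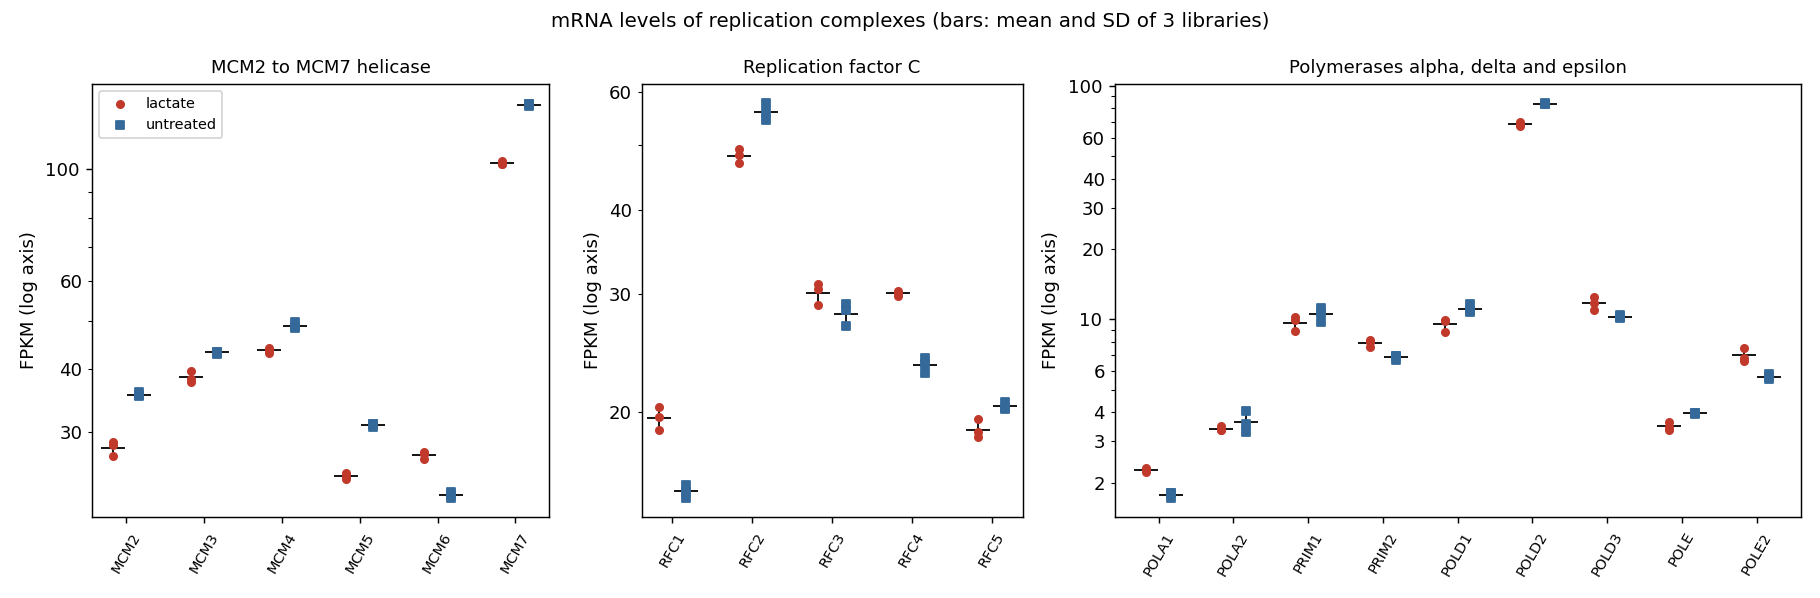
FPKM in each library (log axis) for the subunits of the MCM helicase, replication factor C and the polymerases, with lactate libraries as circles on the left and untreated libraries as squares on the right of each gene, and bars for the mean and SD of 3 libraries. MCM6, RFC1, RFC4, POLA1, PRIM2, POLD3 and POLE2 are higher in lactate, and the other MCM subunits, RFC2, POLD2 and POLE are lower.

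The sliding clamp and its loader were split as well, with 2 members risen, 3 fallen and 1 not passed. PCNA, the ring that holds polymerases on DNA, had 156, 153 and 156 FPKM in lactate and 171, 175 and 174 FPKM in untreated libraries (log2 fold change -0.16, SE 0.018, adjusted p = 2.67e-04). It fell, but after quantile normalization its log2 fold change was 0.0075 (adjusted p = 0.766). RFC1, the large subunit of the loader, had 20.4, 18.8 and 19.6 FPKM in lactate and 15.6, 15.2 and 14.9 FPKM in untreated libraries (log2 fold change 0.34, SE 0.034, adjusted p = 1.50e-04). RFC4, a small subunit, had 30.3, 29.7 and 30.1 FPKM in lactate and 23.6, 24.1 and 22.8 FPKM in untreated libraries (log2 fold change 0.34, SE 0.026, adjusted p = 4.92e-05). Each was higher in every lactate library, and with the trend removed the fold changes were 0.20 for RFC1 and 0.36 for RFC4. RFC2, another small subunit, had 47.04, 48.4 and 49.3 FPKM in lactate and 54.6, 55.97 and 57.7 FPKM in untreated libraries (log2 fold change -0.21, SE 0.028, adjusted p = 5.22e-04). RFC5 had 19.5, 18.3 and 18.7 FPKM in lactate and 20.7, 20.2 and 20.3 FPKM in untreated libraries (log2 fold change -0.11, SE 0.029, adjusted p = 0.0123). Both were lower in lactate. RFC2 did not pass with the trend removed (-0.061, adjusted p = 0.0835), while RFC5 did not pass after quantile normalization (adjusted p = 0.204) or with read totals (0.182). RFC3 had 30.5, 28.9 and 31.1 FPKM in lactate and 28.9, 26.9 and 28.4 FPKM in untreated libraries (log2 fold change 0.10, SE 0.038, adjusted p = 0.0514; interval 0.013 to 0.19), with 1 untreated library above the lowest lactate one. It lay at the threshold and passed as higher in 7 of the alternatives, with adjusted p of 0.00499 (read totals) to 0.0401 (without untreated replicate 1), but had a fold change of 0.0037 with the trend removed. The share of RFC1 in the summed FPKM of the 5 subunits was 13.3% ± 0.389 in lactate and 10.6% ± 0.259 in untreated cells (SD, n = 3 each; exact two-sided permutation p = 0.1).

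Among the replicative polymerases and primase, 4 rose, 3 fell and 2 did not pass. Polymerase alpha with primase lays down the RNA-DNA primer. Its catalytic subunit POLA1 had 2.3, 2.27 and 2.23 FPKM in lactate and 1.799, 1.72 and 1.796 FPKM in untreated libraries (log2 fold change 0.24, SE 0.038, adjusted p = 0.00132). The primase regulatory subunit PRIM2 had 7.63, 8.02 and 8.13 FPKM in lactate and 6.99, 6.67 and 6.93 FPKM in untreated libraries (log2 fold change 0.18, SE 0.034, adjusted p = 0.00285). Both rose, though PRIM2 did not pass with the trend removed (0.071, adjusted p = 0.118), and POLA1 not with the trend removed and the replicate block together (adjusted p = 0.0545). The values of POLA1 imply a gene length of 15547 nt in the authors' annotation, where GENCODE 29 gives 6336 nt, so its level per length would be higher with the shorter model. The partner subunits did not pass. POLA2 had 3.37, 3.49 and 3.34 FPKM in lactate and 3.29, 4.06 and 3.57 FPKM in untreated libraries (log2 fold change -0.072, SE 0.061, adjusted p = 0.333; interval -0.21 to 0.069). The catalytic primase subunit PRIM1 had 9.91, 8.87 and 10.2 FPKM in lactate and 11.2, 9.73 and 10.6 FPKM in untreated libraries (log2 fold change -0.11, SE 0.062, adjusted p = 0.17; interval -0.26 to 0.037). The groups overlapped for both. With the trend removed PRIM1 passed as lower (-0.18, adjusted p = 0.0157), and with the replicate number as a block it passed at an adjusted p of 0.0299. POLA2 shares 2012 of 5726 exonic nt on the same strand with a gene listed at 0.290 FPKM.

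Polymerase delta copies mainly the lagging strand. Its accessory subunit POLD2 had 68.7, 70.1 and 67.6 FPKM in lactate and 84.1, 83.5 and 83.1 FPKM in untreated libraries (log2 fold change -0.28, SE 0.020, adjusted p = 4.15e-05), and the catalytic POLD1 had 8.86, 9.93 and 9.81 FPKM in lactate and 10.8, 11.6 and 10.9 FPKM in untreated libraries (log2 fold change -0.20, SE 0.048, adjusted p = 0.00817). Both were lower, POLD1 not past the threshold with read totals (adjusted p = 0.0518). POLD3, an accessory subunit, had 12.5, 10.999 and 11.8 FPKM in lactate and 10.4, 10.1 and 10.2 FPKM in untreated libraries (log2 fold change 0.18, SE 0.044, adjusted p = 0.00971). It was higher in all 3 lactate libraries, but did not pass with the trend removed (0.081, adjusted p = 0.0974). In polymerase epsilon, the leading strand enzyme, the catalytic POLE had 3.37, 3.44 and 3.62 FPKM in lactate and 3.98, 3.96 and 3.93 FPKM in untreated libraries (log2 fold change -0.15, SE 0.035, adjusted p = 0.00849) and fell, but not past the threshold with read totals (adjusted p = 0.0598). Its second subunit POLE2 had 7.52, 6.85 and 6.65 FPKM in lactate and 5.56, 5.65 and 5.84 FPKM in untreated libraries (log2 fold change 0.26, SE 0.046, adjusted p = 0.00212) and rose, with 0.23 after removal of the trend. The genes that mature Okazaki fragments both fell. The flap endonuclease FEN1 had 75.2, 76.3 and 78.9 FPKM in lactate and 95.9, 100.4 and 96.8 FPKM in untreated libraries (log2 fold change -0.34, SE 0.026, adjusted p = 5.02e-05). DNA ligase LIG1 had 4.54, 4.34 and 4.703 FPKM in lactate and 5.59, 5.52 and 5.65 FPKM in untreated libraries (log2 fold change -0.25, SE 0.035, adjusted p = 6.85e-04). The groups did not overlap for either gene, and both calls held in every scaling tried.

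Of 4 genes that supply deoxynucleotides, 2 fell, 1 rose and 1 did not pass. TYMS, the thymidylate synthase, had 14.8, 14.995 and 15.6 FPKM in lactate and 18.6, 19.2 and 18.7 FPKM in untreated libraries (log2 fold change -0.30, SE 0.029, adjusted p = 1.44e-04). Of its 2470 exonic nt, 967 overlap ENOSF1 on the opposite strand, which averaged 4.06 FPKM, and whether strand was used in counting is not given in the sources used here. TK1, the thymidine kinase of the salvage route, had 156, 165 and 161 FPKM in lactate and 170.3, 175 and 174 FPKM in untreated libraries (log2 fold change -0.11, SE 0.025, adjusted p = 0.00767). TK1 was lower in each lactate library, but its direction depended on the scaling, with log2 fold changes of 0.074 after quantile normalization (adjusted p = 0.0472), -0.037 with read totals (0.307) and 0.035 with the trend removed (adjusted p = 0.0855). The subunits of ribonucleotide reductase differed. The large subunit RRM1 had 48.7, 49.9 and 50.3 FPKM in lactate and 43.6, 43.1 and 44.5 FPKM in untreated libraries (log2 fold change 0.18, SE 0.022, adjusted p = 4.31e-04) and rose. The small subunit RRM2, which limits the enzyme outside S phase, had 22.6, 23.3 and 23.5 FPKM in lactate and 23.996, 23.8 and 24.3 FPKM in untreated libraries (log2 fold change -0.051, SE 0.024, adjusted p = 0.108; interval -0.11 to 0.0059). Its groups did not overlap, but it did not pass. It passed as lower with median centring (-0.072, adjusted p = 0.0332) and with the trend removed (-0.077, adjusted p = 0.0225), while its sign turned after quantile normalization (0.015) and with read totals (0.017). The ratio of RRM2 to RRM1 FPKM was 0.466 ± 0.00175 in lactate and 0.549 ± 0.00309 in untreated cells (SD, n = 3 each; exact two-sided permutation p = 0.1).

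Of 6 tested E2F factors and cyclins E, 2 fell, 2 rose and 2 did not pass, and with the GC and length trend removed 0 of 6 passed by limma at the adjusted threshold, with E2F8 alone at an unadjusted p under 0.05. The activator E2F1 had 12.6, 13.96 and 12.1 FPKM in lactate and 14.4, 15.5 and 14.5 FPKM in untreated libraries (log2 fold change -0.19, SE 0.054, adjusted p = 0.0181). Lactate replicate 2 lay closest to the untreated libraries. E2F1 no longer passed without untreated replicate 2 (adjusted p = 0.058), lactate replicate 1 (0.059) or lactate replicate 3 (0.056), nor with read totals (0.0964), no filter on low values (0.0785) or the trend removed (0.22). E2F2, a second activator, was listed at 0.733, 0.657 and 0.669 FPKM with lactate, against 0.951, 1.04 and 0.858 FPKM without, failed the filter of 1 FPKM in 3 libraries, and was not tested. Without the filter its log2 fold change was -0.21 (adjusted p = 0.0456). E2F3 had 5.23, 4.94 and 5.27 FPKM in lactate and 4.86, 4.79 and 4.99 FPKM in untreated libraries (log2 fold change 0.065, SE 0.035, adjusted p = 0.146; interval -0.017 to 0.15), with overlapping groups, and passed as higher with read totals (0.12, adjusted p = 0.017). The atypical members repress E2F targets. E2F7 had 11.1, 10.8 and 11.1 FPKM in lactate and 10.1, 9.89 and 10.2 FPKM in untreated libraries (log2 fold change 0.12, SE 0.027, adjusted p = 0.00859), and E2F8 had 2.57, 2.65 and 2.99 FPKM in lactate and 2.27, 2.48 and 2.28 FPKM in untreated libraries (log2 fold change 0.16, SE 0.053, adjusted p = 0.0355). Both were higher in every lactate library. With the trend removed the log2 fold change of E2F7 was 0.0083. E2F8 did not pass in 9 of the alternatives beside the fold threshold, among them those without untreated replicate 1 (adjusted p = 0.0941) or 3 (0.0983) or lactate replicate 2 (0.0539) or 3 (0.108). The summed FPKM of E2F7 and E2F8 over that of E2F1 was 1.07 ± 0.103 in lactate and 0.838 ± 0.0366 in untreated cells (SD, n = 3 each; exact two-sided permutation p = 0.1).

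CCNE1 and CCNE2 encode cyclins E1 and E2, the partners of CDK2 at the entry into S phase. CCNE1 had 12.5, 12.8 and 12.6 FPKM in lactate and 13.9, 13.8 and 13.6 FPKM in untreated libraries (log2 fold change -0.11, SE 0.025, adjusted p = 0.00655), without overlap, but did not pass with read totals (adjusted p = 0.159), and its sign turned with the trend removed (0.029, adjusted p = 0.421). CCNE2 had 2.13, 1.98 and 1.76 FPKM in lactate and 1.62, 1.85 and 1.65 FPKM in untreated libraries (log2 fold change 0.13, SE 0.061, adjusted p = 0.109; interval -0.015 to 0.27). In CCNE2, 1 untreated library lay above the lowest lactate one. It passed as higher without lactate replicate 3 (0.18, adjusted p = 0.0473) and with read totals (0.17, adjusted p = 0.0434), and was -0.0078 with the trend removed. Its exons overlap those of INTS8 on the opposite strand by 1629 of 4397 nt.

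Of 5 genes that rebuild chromatin and its methylation behind the fork, 4 fell and 1 did not pass. UHRF1, which reads hemimethylated DNA, had 14.6, 14.3 and 14.04 FPKM in lactate and 17.7, 17.03 and 17.2 FPKM in untreated libraries (log2 fold change -0.26, SE 0.027, adjusted p = 2.05e-04). Its partner DNMT1, the maintenance methyltransferase, had 8.52, 9.15 and 9.13 FPKM in lactate and 9.42, 9.33 and 9.77 FPKM in untreated libraries (log2 fold change -0.082, SE 0.036, adjusted p = 0.0863; interval -0.17 to 0.0024). UHRF1 fell under every scaling tried. DNMT1 was lower without overlap but did not pass, except with median centring (-0.10, adjusted p = 0.0366) and with voom on recovered reads (-0.090, adjusted p = 0.0075). Both member subunits of the histone chaperone CAF-1 fell. CHAF1B had 9.87, 9.81 and 9.91 FPKM in lactate and 10.9, 11.5 and 12.2 FPKM in untreated libraries (log2 fold change -0.21, SE 0.040, adjusted p = 0.00318). CHAF1A had 14.9, 15.1 and 14.6 FPKM in lactate and 16.5, 16.2 and 17.1 FPKM in untreated libraries (log2 fold change -0.15, SE 0.029, adjusted p = 0.00323). Only the fall of CHAF1B held with the trend removed (-0.17, adjusted p = 0.00531), where CHAF1A did not pass (-0.049, adjusted p = 0.223). ASF1B, which hands histones to CAF-1, had 38.5, 37.9 and 37.3 FPKM in lactate and 41.8, 40.98 and 40.95 FPKM in untreated libraries (log2 fold change -0.12, SE 0.022, adjusted p = 0.00255), and did not pass after quantile normalization (adjusted p = 0.257) or with read totals (0.0615). Its sign turned after removal of the trend (0.030, adjusted p = 0.37).

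**Figure D3:**
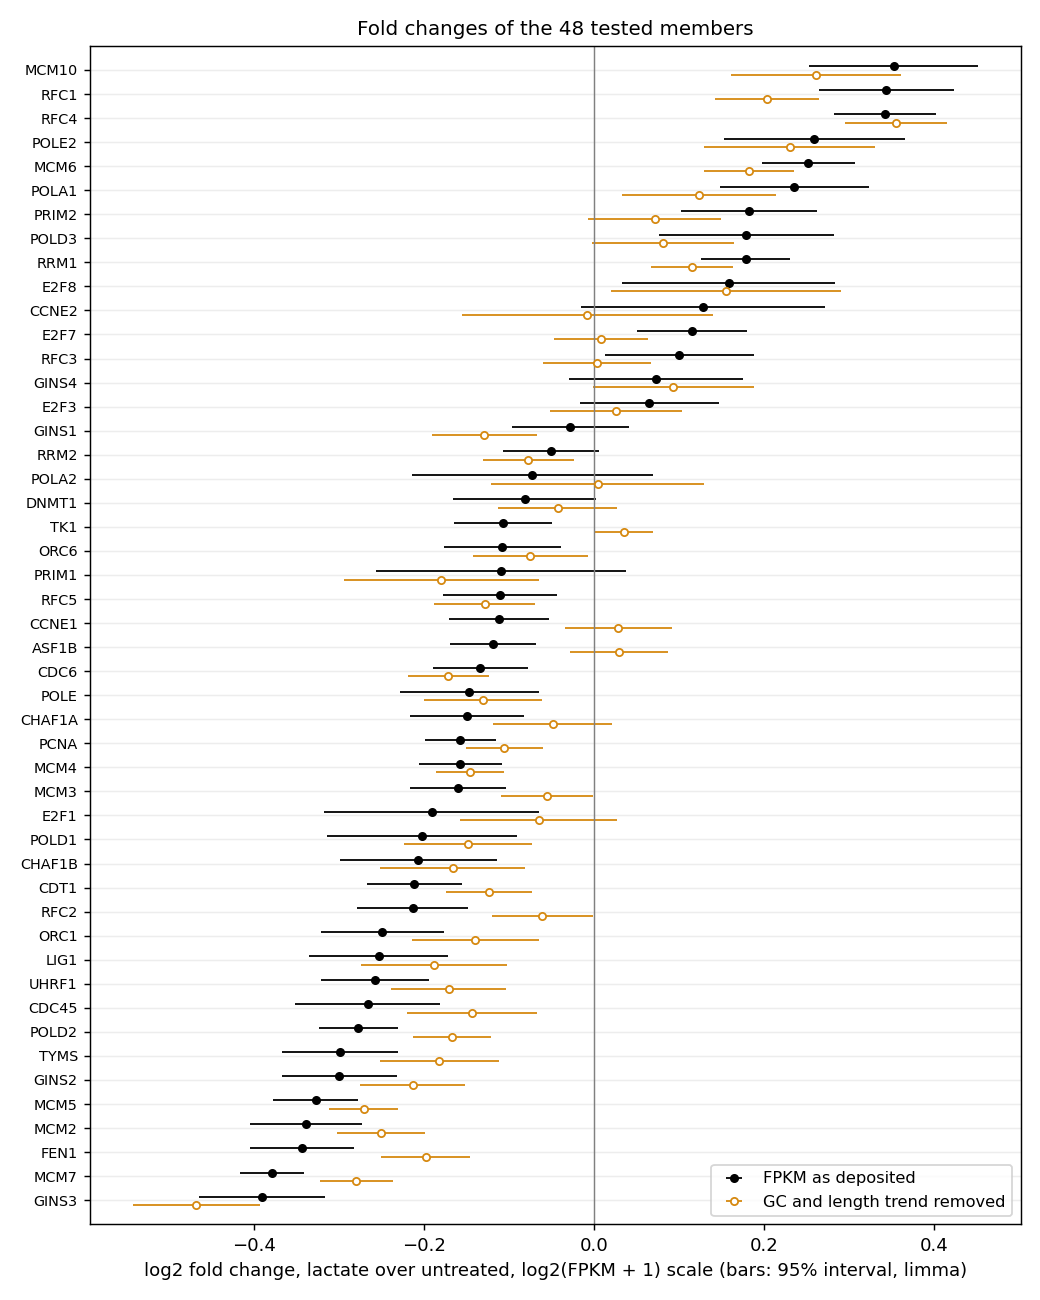
Lactate-over-untreated log2 fold change of FPKM + 1 for the 48 tested members, with bars for limma's 95% interval. Filled points use FPKM as deposited and open points the values after removal of the GC and length trend; MCM10, RFC1, RFC4, POLE2 and MCM6 stay above 0 and GINS3, MCM7, FEN1, MCM2 and MCM5 stay below 0 by both, while TK1, CCNE1 and ASF1B cross it.

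Of all tested genes 30.9% fell and 27.7% rose, and how often other gene groups the size of these complexes are split was not tested. Counting only member subunits, 4 of 8 complexes held both risen and fallen ones: the MCM helicase, replication factor C, polymerase delta and polymerase epsilon. With the GC and length trend removed 5 of 8 did so, since polymerase delta left the set and polymerase alpha-primase and ribonucleotide reductase entered it. The MCM helicase and replication factor C were split with FPKM as deposited, with quantile normalization, with median centring, with read totals and with the trend removed. CAF-1 held no risen member subunit in any of these. RBBP4, a CAF-1 subunit outside the members, rose as deposited (log2 fold change 0.12, limma adjusted p = 0.0138). It also rose with quantile normalization, median centring and read totals, so with RBBP4 counted CAF-1 was split in those settings. With the trend removed RBBP4 did not pass (-0.047, adjusted p = 0.183).

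Fold change moved with GC content, here as over all genes. The 11 members that rose had a median GC content of 43.1% in their longest transcript (41.6% to 45.9%), and the 28 that fell a median of 53.6% (43.6% to 65.0%). The median over all tested genes was 48.1%. Across the 48 members Spearman's rho between fold change and GC content was -0.65, and across 11588 tested genes it was -0.45; genes share the same 6 libraries, so this is a description. The corresponding values for exon length were 0.18 and 0.32, and the untreated level of the members gave -0.47. After the trend was removed 23 members fell and 7 rose, and the median over the 48 was -0.070.

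**Figure D4:**
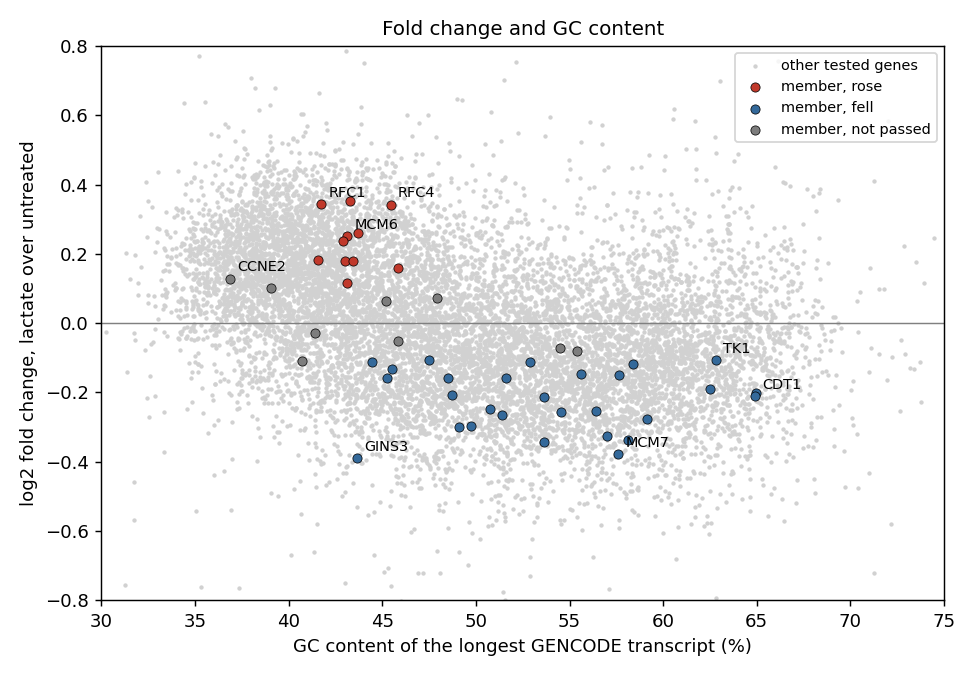
Log2 fold change, lactate over untreated, against the GC content of the longest GENCODE transcript for the members (large points, by call) and all other tested genes (small grey points); 42 genes lie outside the plotted range. Members that rose lie between 41.6% and 45.9% GC, and those that fell reach from 43.6% (GINS3) to 65.0%.

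Counts for other genes of the same pathways follow. Among 36 tested replication factors outside the 49, 15 rose and 10 fell (median 0.086), with 11 risen and 12 fallen after removal of the trend, 15 and 5 after quantile normalization, and 17 and 5 with read totals. Their median GC content was 43.2%. The 3 with the smallest p all fell. POLE4 and POLE3, the histone-fold subunits of polymerase epsilon, had 40.4 ± 0.4804 FPKM in lactate and 51.5 ± 0.0635 FPKM in untreated cells (log2 fold change -0.34, SE 0.019, adjusted p = 1.80e-05) and 79.9 ± 1.95 FPKM in lactate and 109 ± 3.37 FPKM in untreated cells (log2 fold change -0.44, SE 0.029, adjusted p = 3.03e-05), as mean ± SD with n = 3 each. DTYMK, the thymidylate kinase that acts after TYMS and TK1, had 39.9 ± 1.196 FPKM in lactate and 54.4 ± 1.46 FPKM in untreated cells (log2 fold change -0.44, SE 0.030, adjusted p = 3.48e-05). Polymerase epsilon thus had 3 fallen subunits, POLE, POLE3 and POLE4, beside the risen POLE2.

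Of 28 tested genes that control E2F through cyclin-dependent kinases, the RB family and the DREAM complex, 11 rose and 7 fell (median 0.053). The counts were 7 risen and 4 fallen with the trend removed, 12 and 5 after quantile normalization, and 14 and 5 with read totals. CDK4, the kinase that starts RB phosphorylation, had 62.9 ± 1.798 FPKM in lactate and 85.02 ± 1.13 FPKM in untreated cells (log2 fold change -0.43, SE 0.025, adjusted p = 2.04e-05). RB1 itself had 10.6 ± 0.352 FPKM in lactate and 7.34 ± 0.0949 FPKM in untreated cells (log2 fold change 0.48, SE 0.032, adjusted p = 3.17e-05), and E2F4, the E2F of the repressive complexes, had 50.5 ± 0.6302 FPKM in lactate and 61.2 ± 1.47 FPKM in untreated cells (log2 fold change -0.27, SE 0.024, adjusted p = 8.48e-05). CDK4 and E2F4 fell and RB1 rose under every scaling tried. Among 28 tested mitotic genes 10 rose and 12 fell (median -0.067). With the trend removed 10 rose and 9 fell, but after quantile normalization 10 rose and 7 fell, and with read totals 12 rose and 8 fell. Those with the smallest p rose, namely the checkpoint kinase genes BUB1 (18.2 ± 0.0984 FPKM in lactate and 13.004 ± 0.183 FPKM in untreated cells; log2 fold change 0.46) and BUB1B (0.44) and the kinesin gene KIF23 (0.35). The lists were not tested against each other.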

How the data were processed

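Poly-A RNA of 6 CAL27 libraries was profiled, and groups follow the treatment label. The reads went through HISAT2 2.0.5, featureCounts 1.5.0-p3, StringTie 1.3.3b and fastp on hg38, per the submitters' processing notes. No source used here gives the annotation release, the strand setting or any scaling between libraries. The authors deposited FPKM, and all 6 columns were used. Whole reads behind these values were recovered (to within 0.003 reads, 31366 of 31368 genes) from a common gene length, searched near the GENCODE 29 exon length. They came to 98.0% to 99.1% of the denominators in lactate and 102.9% to 104.1% in untreated libraries.

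Limma 3.58.1 (R 4.3.3; trended, robust variance, group as the only term) was fitted to log2(FPKM + 1) of the 11792 genes reaching 1 FPKM in 3 or more libraries, and p-values were adjusted over all of them. On this scale the changes of low genes are understated. The GC and length alternative used natural splines with 4 degrees of freedom over 11588 genes with GENCODE annotation. The fit was tested on simulated data with known fold changes. Other alternatives were quantile normalization, median centring, read totals, voom on recovered reads, no variance trend, no filter, a filter at 5 FPKM, a pseudocount of 0.1, a minimum fold of 1.2, the replicate number as a block, and leaving out single libraries. Python 3.11.15 did the rest.

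The members and lists were chosen with earlier results of these data known. All members could be named, with values in every library for the 3 smallest p of each role and for members against their role's majority. The same held for those whose call changed under an alternative, the fold threshold included. Values in every library were given for all members. Of the other lists the 3 genes with the smallest p were named by rule. ORC2 to ORC5, RBBP4 and the genes under other observations were named after their values were seen. Intervals cover the spread between libraries only.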

Additional observations from a re-analysis of the deposited data

How the results depend on the processing

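Beside the fold threshold of 1.2, 17 alternatives were run. Over those that gave a value, 14 of the 28 falls (MCM7, POLD2, MCM5, FEN1, GINS2, MCM2, CDC45, CDT1, UHRF1, CHAF1B, TYMS, GINS3, LIG1 and ORC1) and 6 of the 11 rises (RRM1, RFC1, MCM6, RFC4, MCM10 and POLE2) kept direction and call. The sign turned after quantile normalization for TK1 (0.074), PCNA (0.0075), RRM2 (0.015) and GINS1 (0.021), and with read totals for RRM2 (0.017) and GINS1 (0.038). It turned with the GC and length trend removed, with or without the replicate block, for TK1 (0.035), ASF1B (0.030), CCNE1 (0.029), POLA2 (0.0046) and CCNE2 (-0.0078); the cause was not tested. The count of risen members was 7 with the trend removed, also with the block. A minimum fold of 1.2 left 1 fallen and 0 risen members, and 242 fallen and 187 risen genes in all, since it asks for larger changes. The filter at 5 FPKM, which tested 6448 genes, left 1786 risen genes. With 1 library left out, 26 to 28 members fell and 10 to 11 rose, and 3220 to 3448 genes fell and 2807 to 3036 rose in all.

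Same-numbered libraries deviated together only weakly (correlations 0.0526, 0.0668 and -0.00377), and lactate replicate 3 did not correlate best with its own number, so the numbers were not taken as pairs. With the replicate block 29 members fell and 12 rose, and PRIM1 and RFC3 passed. In all, 3782 genes fell and 3257 rose with the block. Depth limits E2F2 most, which had as few as 118 reads in a library.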

Other observations

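Some genes of the control and mitotic lists were picked after their values were seen and are given here as values. All 3 genes of the RB family were higher in lactate. RBL2 had 4.89 ± 0.217 FPKM in lactate and 3.37 ± 0.165 FPKM in untreated cells (mean ± SD, n = 3 each; log2 fold change 0.43, SE 0.044, adjusted p = 1.72e-04), and RBL1 had 4.33 ± 0.264 FPKM in lactate and 3.48 ± 0.0712 FPKM in untreated cells (log2 fold change 0.25, SE 0.043, adjusted p = 0.00202). With the GC and length trend removed RBL2 still passed (0.31, adjusted p = 2.36e-04) and RBL1 did not (0.098, adjusted p = 0.0724). RRM2B, the subunit of ribonucleotide reductase that can stand in for RRM2, had 6.68 ± 0.431 FPKM in lactate and 4.81 ± 0.189 FPKM in untreated cells (log2 fold change 0.40, SE 0.048, adjusted p = 3.57e-04).

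Genes commonly read as proliferation markers did not share a direction. MKI67 had 13.6 ± 0.271 FPKM in lactate and 10.6 ± 0.118 FPKM in untreated cells (log2 fold change 0.33, SE 0.027, adjusted p = 6.27e-05) and TOP2A had 48.9 ± 1.27 FPKM in lactate and 40.4 ± 1.01 FPKM in untreated cells (log2 fold change 0.27, SE 0.028, adjusted p = 1.89e-04), both higher in lactate. AURKA had 47.99 ± 0.722 FPKM in lactate and 55.99 ± 0.518 FPKM in untreated cells (log2 fold change -0.22, SE 0.020, adjusted p = 1.14e-04) and PLK1 had 20.5 ± 0.229 FPKM in lactate and 24.3 ± 0.337 FPKM in untreated cells (log2 fold change -0.24, SE 0.023, adjusted p = 1.37e-04), both lower. These 4 calls held with quantile normalization, median centring, read totals and the GC and length trend removed.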
